A study of Homo sapiens with 9 samples.

Results

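The replicate number of the libraries was the experiment examined here. The series holds 9 RNA sequencing libraries of OVCAR3 (ATCC HTB-161), an established line of human ovarian carcinoma cells, and their column names end in 1, 2 or 3. The 3 libraries numbered 1 were set against the 6 numbered 2 or 3. Each set spans the same 3 groups: cells with a scramble hairpin, whose genotype is labelled WT, and cells with hairpin 76 or hairpin 78 against GPX3, labelled as knock-down. All 9 were sequenced after 72 h of culture, and all grew in RPMI 1640 with serum and insulin. They come from 1 cell line, and the labels do not say whether a number marks a culture, an RNA extraction or a sequencing run, so p-values measure only the spread between these libraries, which may be technical. Since every hairpin group holds each number once, the numbers could be compared within hairpin groups, with the hairpin as a block.

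A cell line carries the same genome from dish to dish, but its RNA levels depend on how the cells are grown. Heat shock genes encode chaperones that refold proteins and are switched on by HSF1, hypoxia genes are switched on by HIF factors when oxygen falls, and matrix and actin genes follow adhesion and cell shape. NRF2 targets keep glutathione reduced, the substrate of the peroxidase family that GPX3 belongs to.

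Libraries numbered 1 differed from the others in many genes by small amounts. In most of those genes library 1 lay on the same side in all 3 hairpin groups, which the choice of genes favours. Libraries numbered 1 had more RNA of the inducible chaperones HSPA1B and DNAJB1, of the secreted chaperone CLU and of hypoxia genes such as VEGFA. They had less RNA of the matrix protein FN1, of other matrix and actin genes, of the NADPH-producing enzyme ME1 and of genes of the mitochondrial genome. Libraries numbered 2 and 3 also differed from each other, among others in the chaperones HSPA8 and HSPH1, which were low in all 3 libraries numbered 3.

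The table held 14652965 to 21327562 counts per library, and those numbered 1 held 15517932, 15903902 and 18378585. Number 1 had the shallowest library of the scramble and hairpin 76 groups and the deepest of the hairpin 78 group. Between 25630 and 27424 genes were detected per library. Of 58735 genes, 17023 passed the filter on low counts. PAX8, the transcription factor of Müllerian epithelium, had 733 to 1006 CPM (counts scaled to library size with the TMM factors of edgeR), and all 15 ovarian and epithelial markers were tested, although ESR1, the estrogen receptor, had only 7 to 25 counts per library. Of 7 leukocyte markers, 5 were under the filter, and CD68 had at most 1 count. Among endothelial markers, edgeR and DESeq2 called 0 of the 4 tested between number 1 and the others (2 by unadjusted p). The library of hairpin 76 numbered 2 stood apart in fibroblast genes: COL3A1 had 53 counts there against 0 to 4 elsewhere, COL1A2 had 142 against 19 to 51, and DCN had 11 against 0 to 3.

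GPX3, the secreted selenium-dependent peroxidase that the hairpins target, lies at chr5:151020438-151028993 (GRCh38). It had 173, 109 and 117 CPM in scramble libraries 1 to 3, 56.8, 55.2 and 55.5 CPM with hairpin 76, and 35.3, 28.4 and 28.3 CPM with hairpin 78. The hairpin groups did not overlap, scramble was the highest, and library 1 was the highest of each group, by a wide margin only in scramble. The log2 fold change of number 1 over numbers 2 and 3 was 0.34 (SE 0.08, edgeR adjusted p 0.00744), and without the scramble library numbered 1 the adjusted p was 0.214. GDF15, a stress-induced cytokine, had 13.4, 14.2 and 13.1 CPM in scramble, 1.79, 4.56 and 4.44 CPM with hairpin 76, and 1.18, 1.65 and 2.40 CPM with hairpin 78. Its value was lowest in library 1 of both knock-down groups but not in scramble, and the difference of −0.49 on the log2 scale did not pass (SE 0.19, edgeR adjusted p 0.0846).

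The first question was how much of the transcriptome followed the number. In edgeR's quasi-likelihood test with the hairpin as block, 2649 of 17023 genes differed between number 1 and numbers 2 and 3 (15.6%). Of these, 1213 were higher (7.13%) and 1436 lower (8.44%) in number 1. The sizes were small: 75.2% of the called genes differed by less than 0.5 on the log2 scale, their median size was 0.33, and 157 reached 1, of which 110 were lower. In 2519 of the 2649 genes library 1 lay beyond both other libraries in all 3 hairpin groups. This was true of 13.6% (above) and 15% (below) of all genes tested. The test that called the genes used these same values and favours such genes, so the count is a description. The counts fell without any 1 library numbered 1: 1143 genes were called without that of scramble, 1392 without that of hairpin 76 and 1408 without that of hairpin 78. Of these, 1106, 1343 and 1350 were among the 2649. Such a fit has fewer libraries numbered 1 and less power, so the drop does not single out a library. The same limit holds for the list counts below. With number as a factor of 3 levels, which takes the difference between 2 and 3 out of the error, 4109 genes were called (24.1%), 11.8% higher and 12.4% lower.

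The other pairs of numbers also differed. Number 1 against number 2 gave 3071 genes (18%), 8.66% higher and 9.38% lower in 1. Number 1 against number 3 gave 4151 (24.4%), 11.8% higher and 12.6% lower, and number 2 against number 3 gave 1215 (7.14%). These comparisons share libraries and are not independent of each other. Without scramble library 3, 2660 genes were called between 1 and 3. The count between 2 and 3 fell to 609 and 630 without scramble library 2 or 3, and to 578 and 549 without library 2 or 3 of hairpin 76. Fewer genes were called between 2 and 3 than for either pair with 1. Of the 1215 genes, 659 were higher (3.87%) and 556 lower (3.27%) in number 2. Library 2 lay above library 3 in all 3 hairpin groups in 20.4% of all genes tested and below it in 21.1%.

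Deviations of the libraries from their hairpin group mean were laid out by principal components over 11590 genes. The first component held 50.7% of the variance and placed the 3 libraries numbered 1 between 14.2 and 16.0, against −4.71 to −11.3 for the other 6. The second held 19.8% and placed numbers 2 at 7.43 to 9.60 and numbers 3 at −6.60 to −8.55. Across genes, which are not independent replicates, the difference of library 1 from the mean of 2 and 3 correlated between hairpin groups with an r of 0.37 to 0.39 and a rho of 0.43 to 0.44, over 17023 genes and with no library shared. The difference of 2 from 3 gave an r of 0.12 to 0.23.

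**Figure D1:**
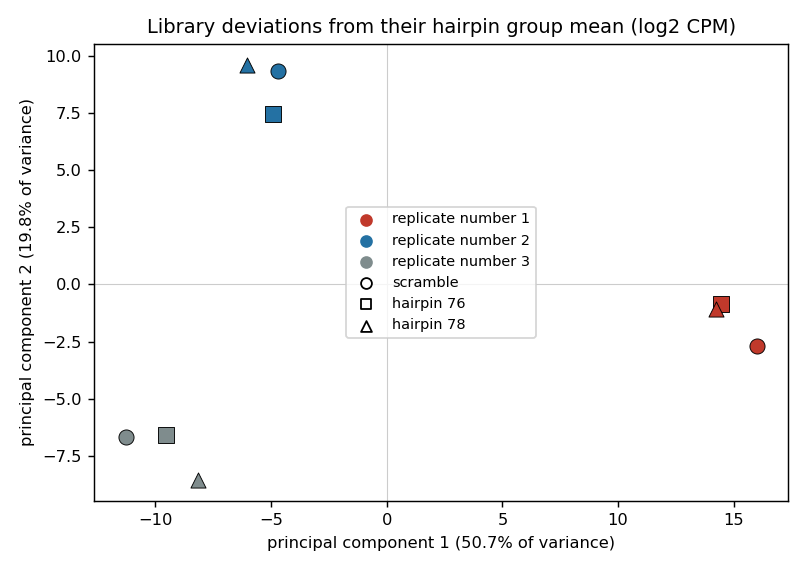
Each point is 1 library, placed by its log2 CPM deviation from the mean of its hairpin group on principal component 1 (x axis, 50.7% of the variance) and 2 (y axis, 19.8%), with colour for the replicate number and shape for the hairpin. The 3 libraries numbered 1 lie at the right, at 14.2 to 16.0, and numbers 2 and 3 separate along the y axis.

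Whether the difference of number 1 itself varied with the hairpin was tested as an interaction. Of 17023 genes, 1 was called (0.00587%) by edgeR and 1 by DESeq2, and 324 had an unadjusted edgeR p under 0.05. The fit leaves 3 residual degrees of freedom, so a gene not called here is not shown to have the same difference in each group. The called gene was BOLA2B, an iron-sulfur cluster protein gene, whose counts depended on 1 library. The contrast of both hairpins with scramble, the main one of the study, called 687 genes (4.04%) without the number, 1.49% higher and 2.55% lower, and 3462 (20.3%) with the replicate number as a block, 9.38% higher and 11% lower. The common coefficient of variation between libraries was 10.4% with the hairpin groups alone, 6.77% with number 1 set apart and 4.69% with all 3 numbers.

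Of the protein-coding genes named by size, the heat shock gene HSPA1B had the largest increase. HSPA1B and HSPA1A encode the inducible chaperone HSP70, DNAJB1 is its HSP40 partner and BAG3 its exchange factor, while HSPA8 is the HSP70 that cells make at all times and HSPH1 an HSP110 that works with it. HSF1, their activator, binds inverted repeats of a 5-base unit. To show what such starts look like, the 250 bases before the annotated start of 4 genes are given from RefSeq (GRCh38.p14), 5′ to 3′ on the gene's strand, with capitals for GAANNTTC, a pair of units that is its own reverse complement, and for a run of 3 units, which is that pair with GAA or TTC 2 bases further on, on either strand.
HSPA1B: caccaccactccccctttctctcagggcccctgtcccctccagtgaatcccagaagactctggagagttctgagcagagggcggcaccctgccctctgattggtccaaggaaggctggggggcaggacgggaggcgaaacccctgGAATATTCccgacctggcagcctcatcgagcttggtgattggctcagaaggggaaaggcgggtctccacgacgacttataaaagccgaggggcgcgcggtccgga
DNAJB1: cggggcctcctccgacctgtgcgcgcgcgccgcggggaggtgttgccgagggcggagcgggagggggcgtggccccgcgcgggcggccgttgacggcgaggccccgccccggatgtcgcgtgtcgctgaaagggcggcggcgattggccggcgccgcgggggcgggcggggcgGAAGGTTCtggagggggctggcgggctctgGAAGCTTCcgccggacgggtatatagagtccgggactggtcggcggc
HSPB1: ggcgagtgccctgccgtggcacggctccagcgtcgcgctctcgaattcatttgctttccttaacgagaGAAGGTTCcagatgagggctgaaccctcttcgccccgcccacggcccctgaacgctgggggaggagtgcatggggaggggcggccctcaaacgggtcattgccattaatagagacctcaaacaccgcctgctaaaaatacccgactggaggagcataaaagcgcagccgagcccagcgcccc
HSPA8: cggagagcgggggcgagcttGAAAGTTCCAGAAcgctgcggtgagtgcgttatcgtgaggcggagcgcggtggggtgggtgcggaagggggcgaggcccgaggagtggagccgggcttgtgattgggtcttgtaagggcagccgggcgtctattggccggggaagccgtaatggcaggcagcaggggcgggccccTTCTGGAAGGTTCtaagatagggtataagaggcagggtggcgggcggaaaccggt

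These windows lie at chr6:31827488-31827737 (HSPA1B, plus strand), chr19:14518398-14518647 (DNAJB1, minus strand, the 1 of its 3 listed starts with a pair), chr7:76302423-76302672 (HSPB1, plus strand) and chr11:123062137-123062386 (HSPA8, minus strand). The pair begins 105 bases before the start in HSPA1B, and HSPA8 has runs of 3 units near both ends of its window. A pair stands in such a window of 10 of the 17 heat shock list genes matched to RefSeq (FKBP4 was not matched), and of 7.05% of 27305 genes in all. A run of 3 units stands in 5 of the 17 and in 0.557% of all genes. The 5 genes with the run are CHORDC1, HSP90AA1, HSP90AB1, HSPA8 and HSPD1, and HSPB1, which was lower in number 1, has a pair. The matches describe these letters only.

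HSPA1B (chr6:31827735-31830255) had 88.8, 36.6 and 29.7 CPM in scramble libraries 1 to 3, 103, 35.2 and 35.8 CPM with hairpin 76, and 88.6, 33.8 and 32.9 CPM with hairpin 78. The 3 libraries numbered 1 were all above the 6 others, at 93.5 ± 8.4 CPM (SD, n = 3) against 34.0 ± 2.5 CPM (SD, n = 6), which is 1.46 higher on the log2 scale (SE 0.06, edgeR adjusted p 3.24e-14). DNAJB1 had 141, 82.0 and 84.9 CPM in scramble, 146, 90.9 and 93.2 CPM with hairpin 76, and 131, 80.2 and 78.5 CPM with hairpin 78. Again number 1 lay apart in every group, with numbers 2 and 3 close to each other (log2 fold change 0.71, SE 0.05, edgeR adjusted p 2.4e-10). DNAJB1 overlaps TECR on the other strand in the annotation, and the libraries keep no strand. HSPB1, a small chaperone that binds unfolding proteins without ATP, went the other way. It had 530, 749 and 747 CPM in scramble, 641, 836 and 836 CPM with hairpin 76, and 638, 840 and 808 CPM with hairpin 78, and fell by 0.42 on the log2 scale in number 1 (SE 0.04, edgeR adjusted p 3.05e-07).

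Of the 18 heat shock genes tested, 4 rose in number 1 (HSPA1B, HSPA1A, DNAJB1 and BAG3), 2 fell (HSPB1 and HSPA4) and 12 did not pass, against 7.13% and 8.44% of all genes, with a median log2 fold change of 0.08 against −0.00 over all 17023 genes. The HSPA1A and HSPA1B genes are near-identical copies between which reads can be split. The HSPA1A call (log2 fold change 1.31, edgeR adjusted p 0.0367) was lost in 7 of 9 fits that left out 1 library, with adjusted p up to 0.178. That fit keeps the difference between 2 and 3 in its error. With number as 3 levels, HSPA1A was higher in 1 than in 2 (0.98, edgeR adjusted p 3.29e-05) and than in 3 (1.74, edgeR adjusted p 3.34e-07). The summed level of both copies was 197, 237 and 177 CPM in the libraries numbered 1 and 57.7 to 99.8 CPM in the others. CLU, an extracellular chaperone, is on no list used here. It had 1528, 636 and 550 CPM in scramble, 1102, 443 and 373 CPM with hairpin 76, and 908, 405 and 408 CPM with hairpin 78. All 3 libraries numbered 1 were above the 6 others (log2 fold change 1.32, SE 0.06, edgeR adjusted p 1.37e-08).

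Other chaperones, such as HSPA8 and HSPH1, followed number 3, and the sets shared HSPA1A, which was also higher in 2 than in 3 (0.76, edgeR adjusted p 0.00144). HSPA8 had 913, 847 and 524 CPM in scramble, 979, 922 and 584 CPM with hairpin 76, and 897, 936 and 540 CPM with hairpin 78. Number 3 was below both others in every group: the log2 fold change of 2 over 3 was 0.71 (SE 0.04, edgeR adjusted p 7.09e-17), and that of 1 over 2 was 0.04 (edgeR adjusted p 0.509). HSPH1 had 96.1, 88.0 and 51.2 CPM in scramble, 94.6, 86.5 and 56.8 CPM with hairpin 76, and 95.7, 98.8 and 52.7 CPM with hairpin 78, with a log2 fold change of 0.76 for 2 over 3 (edgeR adjusted p 1.97e-13). Between 2 and 3, 11 of the 18 heat shock genes were higher in 2 and 0 lower, against 3.87% and 3.27% of all genes tested, and the median was 0.20 against −0.00. By unadjusted edgeR p under 0.05 these counts were 12 and 1, and DESeq2 called 11 and 0. In 1 against 2, 6 of the 18 were higher in 1 and 6 lower, against 8.66% and 9.38% of all genes. In 1 against 3, 10 were higher and 2 lower, against 11.8% and 12.6%. The list as a whole thus did not split into genes high in 1 and genes low in 3.

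The RNA-binding proteins RBM3 and CIRBP, whose RNA is induced by mild cold, showed the reverse between 2 and 3. RBM3 had 95.4, 80.4 and 114 CPM in scramble, 97.0, 83.3 and 116 CPM with hairpin 76, and 84.3, 76.8 and 93.6 CPM with hairpin 78. Number 3 was the highest and number 2 the lowest in each group, with a log2 fold change of −0.43 for 2 over 3 (edgeR adjusted p 9.56e-08). CIRBP gave −0.36 (edgeR adjusted p 7.02e-06). Between number 1 and the others edgeR and DESeq2 called 0 of these 2 genes, and 0 had an unadjusted p under 0.05. Number 1 lay between 2 and 3.

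**Figure D2:**
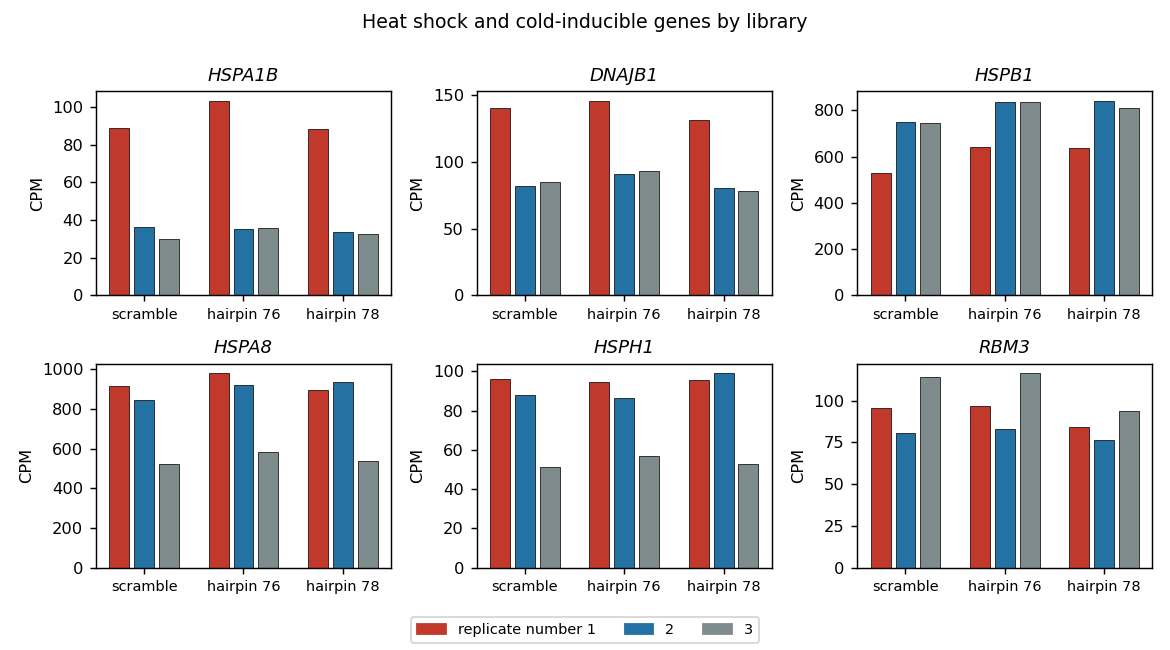
Bars give normalised CPM (y axes, from 0) of 1 library each for 6 genes, grouped by hairpin, with colour for the replicate number. HSPA1B and DNAJB1 are high in number 1, HSPB1 is low in number 1, HSPA8 and HSPH1 are low in number 3, and RBM3 is highest in number 3.

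The largest decrease by the same rule was that of FN1, a gene of the extracellular matrix. FN1, which encodes fibronectin (chr2:215360440-215436172), had 14.9, 45.0 and 72.3 CPM in scramble libraries 1 to 3, 16.2, 70.5 and 86.9 CPM with hairpin 76, and 23.2, 116 and 105 CPM with hairpin 78. The highest library numbered 1 was below the lowest of the others, at 18.1 ± 4.5 CPM (SD, n = 3) against 82.7 ± 26 CPM (SD, n = 6), and FN1 fell by 2.18 on the log2 scale (SE 0.19, edgeR adjusted p 0.000938). SPOCK1, a secreted proteoglycan, had 13.6, 28.6 and 30.5 CPM, 11.2, 40.2 and 48.7 CPM, and 19.8, 55.0 and 65.3 CPM in the same order of groups. Library 1 was the lowest of each group, and SPOCK1 fell by 1.58 (SE 0.14, edgeR adjusted p 2.99e-05). VCAN, the matrix proteoglycan versican, fell by 1.51 (SE 0.13, edgeR adjusted p 9.08e-08).

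Of 17 matrix and mesenchymal genes tested, edgeR called 10 lower and 0 higher, where it called 8.44% and 7.13% of all genes, and the list median was −0.28 against −0.00. DESeq2 and unadjusted edgeR p values also gave 10 and 0. Its members included the fibronectin receptor ITGA5 (−0.68, edgeR adjusted p 1.25e-05), the collagen receptor ITGA2 (−0.65), the collagen COL6A2 (−0.48) and N-cadherin, CDH2 (−0.28). ITGA5 had 16.4, 22.7 and 25.8 CPM in scramble, 14.99, 30 and 28.1 CPM with hairpin 76, and 21.3, 29.2 and 32.5 CPM with hairpin 78, so library 1 was lowest in each group. The intermediate filament VIM (0.08, edgeR adjusted p 0.641) did not pass. Without library 1 of hairpin 76 the count was 5, and without that of hairpin 78 it was 6. COL1A1, listed here as a fibroblast marker, fell by 0.48 (edgeR adjusted p 4.03e-05), at 25.5 to 31.7 CPM in number 1 and 33.7 to 44.5 CPM in the others. The summed FPKM (the authors' values, scaled to gene length and depth) of the 7 fibroblast markers was 2.79 to 3.63 in number 1 and 3.59 to 5.71 in the others, with the highest in hairpin 76 library 2. Without that library 9 matrix genes fell, and FN1 fell by 2.22. In 8 of the 9 libraries LUM had 0 counts, and DCN had 0 in 4. The part of fibroblast RNA in the matrix values was not tested.

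Actin genes and YAP and TAZ targets were counted next, against 8.44% of all genes called lower and 7.13% higher. Of 17 actin cytoskeleton and SRF target genes, edgeR called 6 lower and 0 higher (10 and 1 by unadjusted p, 6 and 0 by DESeq2, median −0.16), among them the LIM proteins FHL1 (−0.80, edgeR adjusted p 3.16e-05) and FHL2 (−0.47). That count was 3, 2 and 3 without library 1 of scramble, hairpin 76 and hairpin 78. Among 21 YAP and TAZ targets, which follow cell spreading and density, 4 fell, 2 rose and 15 did not pass (median −0.06), and the count of 6 was 2, 2 and 3 without the same libraries. CRIM1, a membrane-bound regulator of growth factors, had 233, 314 and 345 CPM in scramble, 213, 301 and 324 CPM with hairpin 76, and 240, 354 and 343 CPM with hairpin 78. Every library numbered 1 was below every other (−0.53, SE 0.05, edgeR adjusted p 2.9e-08). The receptor kinase AXL fell by 1.38 (edgeR adjusted p 0.000647), from 1.77 to 3.40 CPM down to 0.617 to 1.22 CPM. Between 2 and 3, 5 of the 21 YAP and TAZ targets were higher in 2, against 3.87% of all genes. In 1 against 2, 8 of the 21 fell and 2 rose, against 9.38% and 8.66% of all genes. In 1 against 3, 4 fell and 6 rose, against 12.6% and 11.8%, so the direction depended on the number compared.

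Epithelial markers were called in both directions, where 7.13% of all genes were higher and 8.44% lower. Of the 15 ovarian and epithelial markers, 5 rose (MSLN, WFDC2, SOX17, WT1 and MUC16, genes of the serous ovarian lineage and its secreted antigens) and 6 fell (the keratins KRT7, KRT8, KRT18 and KRT19 and the tight junction claudins CLDN3 and CLDN4). WT1, a transcription factor of serous carcinoma, had 115, 108 and 102 CPM in scramble, 99.2, 59.7 and 58.4 CPM with hairpin 76, and 107, 68.2 and 66.3 CPM with hairpin 78. Library 1 was highest in each group, with a small margin in scramble (0.52, SE 0.09, edgeR adjusted p 0.0037). MUC16, the CA125 mucin, had 1788 to 2076 CPM in number 1 and 1216 to 1763 CPM in the others, with no overlap (0.36, edgeR adjusted p 0.0298). The MUC16 call was lost without library 1 of scramble (adjusted p 0.133) or hairpin 76 (0.126) or library 3 of hairpin 78 (0.063). KRT18 had 1896, 2306 and 2329 CPM in scramble, 1518, 1809 and 1824 CPM with hairpin 76, and 1453, 1651 and 1633 CPM with hairpin 78, so number 1 was lowest within each group (−0.24, SE 0.04, edgeR adjusted p 0.000139). Of 17 epithelial differentiation and kallikrein genes, 1 rose and 2 fell.

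The other genes among the 10 highest were the galanin receptor GALR2 (1.11), the polarity protein CRB2 (1.11), the ciliary protein CEP19 (1.11), LRRC32, which docks latent TGF-beta (0.94), the ligand WNT11 (0.93), GPR89B (0.92) and the splicing kinase CLK4 (0.91). GPR89B has a near-identical copy, GPR89A: with hairpin 76 library 1 had 285 GPR89B and 133 GPR89A counts, where library 2 had 120 and 323, and the copies summed to 26.3 CPM against 21.6 and 22.7 CPM. Without that library GPR89B was not called (edgeR adjusted p 0.0949). Among the 10 lowest were also the hair keratin KRT81 (−1.74), the carboxypeptidase CPA4 (−1.62), the channel subunit CACNG6 (−1.53), the elongation factor EEF1A2 (−1.52), the acute phase glycoprotein ORM2 (−1.49) and the transcriptional inhibitor MDFI (−1.41). CPA4 had 12.2, 32.2 and 34.9 CPM in scramble, 31.3, 94.7 and 99.1 CPM with hairpin 76, and 5.82, 19.8 and 20.8 CPM with hairpin 78. Its level differed between hairpin groups, and library 1 was below the others by 1.45 to 1.78 on the log2 scale in each (edgeR adjusted p 4.76e-13). KRT81 overlaps KRT86, CRB2 overlaps DENND1A and CEP19 overlaps PIGX on the other strand. Only the spans of the genes were compared, and unstranded reads from bases that a pair shares cannot be told apart. ORM2, with 3 to 19 counts per library, has the copy ORM1. The calls of ORM2, MDFI and CACNG6 were each lost without at least 1 library numbered 1 (edgeR adjusted p up to 0.203, 0.0748 and 0.0579).

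**Figure D3:**
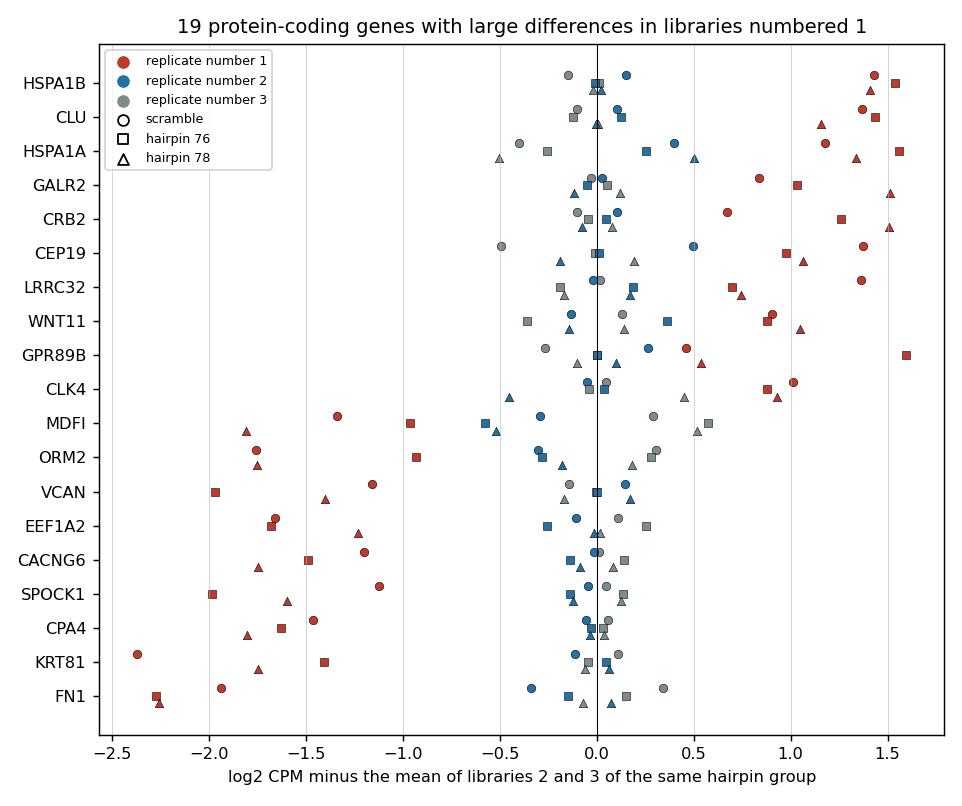
For 19 of the 20 protein-coding genes named by size (y axis), points give log2 CPM of each library minus the mean of libraries 2 and 3 of its hairpin group (x axis), with colour for the replicate number and shape for the hairpin. Libraries numbered 1 lie beyond both others of their group for every gene shown, which was a condition of their choice.

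Of 22 hypoxia genes tested, 8 rose in number 1, 2 fell and 12 did not pass (median 0.28), where edgeR called 7.13% of all genes higher and 8.44% lower. VEGFA, the angiogenic growth factor, had 98.04, 66.7 and 61.8 CPM in scramble, 74.9, 56.3 and 49.3 CPM with hairpin 76, and 51.1, 35.6 and 34.4 CPM with hairpin 78. Library 1 was the highest of each group (0.55, SE 0.06, edgeR adjusted p 4.61e-07). KDM3A, a histone demethylase, had 77.3, 50.8 and 57.2 CPM, 71.2, 53.4 and 55.9 CPM, and 72.5, 59.1 and 59.3 CPM in the same groups, and all 3 libraries numbered 1 were above all others (0.40, SE 0.06, edgeR adjusted p 3.89e-05). PFKFB4, ADM, PDK1, PFKFB3, EGLN1 and MXI1 rose as well, by 0.25 to 0.60, while NDRG1 and ERO1A, which the same pathway induces, fell by 0.15 and 0.25. The count of 10 was 4, 5 and 6 without library 1 of scramble, hairpin 76 and hairpin 78. The prolyl hydroxylase EGLN3 followed number 3 instead: it had 53.04, 47.6 and 34.5 CPM, 60.8, 58.6 and 36.2 CPM, and 66.8, 81.6 and 41.6 CPM, lowest in number 3 of each group (0.72 for 2 over 3, edgeR adjusted p 3.95e-07). Between 2 and 3, 4 hypoxia genes were higher in 2 and 1 lower, against 3.87% and 3.27% of all genes. That count was 3 without library 3 of hairpin 76.

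Metabolic lists are read against the same 7.13% of all genes called higher and 8.44% lower. Of 18 glycolysis genes, 1 rose and 4 fell (median 0.01): the hexokinase HK2 rose by 0.35 (edgeR adjusted p 6.66e-05), while the phosphofructokinases PFKM and PFKP and the lactate exporter SLC16A3 fell by 0.35, 0.34 and 0.31. SLC16A3 overlaps CSNK1D on the other strand, with the same limit on unstranded reads. The count was 3 without library 1 of hairpin 78. Of 12 fatty acid synthesis genes edgeR called 6 lower and 0 higher (7 and 0 by unadjusted p, 6 and 0 by DESeq2, median −0.18), with SCD, the stearoyl desaturase, at 1443, 2038 and 2116 CPM in scramble, 1450, 1681 and 1747 CPM with hairpin 76, and 1779, 1824 and 1844 CPM with hairpin 78. Library 1 was lowest each time, by little with hairpin 78 (−0.27, edgeR adjusted p 0.0161). The SCD call was lost without library 1 of scramble (adjusted p 0.158) or hairpin 76 (0.0779) or library 2 of scramble (0.0563), and the list count was 1 and 2 without library 1 of scramble and hairpin 76. Among 24 cholesterol synthesis genes 4 rose, among them the epoxidase SQLE (0.31), and 1 fell. That count was 3 without library 1 or 2 of scramble or hairpin 78 or library 2 of hairpin 76. Between 2 and 3, edgeR called 6 of those 24 lower in 2 and 0 higher (10 and 0 by unadjusted p, 5 and 0 by DESeq2), against 3.27% and 3.87% of all genes. The direction in number 1 depended on the number compared. Against 2, 6 of the 24 were higher and 1 lower, where 8.66% and 9.38% of all genes were called. Against 3, 2 were higher and 4 lower, where these shares were 11.8% and 12.6%.

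NRF2 targets, the antioxidant and NADPH-making genes around the glutathione system in which GPX3 works, came next. Of 21 tested, 9 fell, 1 rose and 11 did not pass (median −0.16), against 8.44% and 7.13% of all genes. ME1, the cytosolic malic enzyme that makes NADPH, had 40.3, 73.5 and 70.1 CPM in scramble, 41.2, 51.6 and 53.7 CPM with hairpin 76, and 24.9, 42.2 and 36.6 CPM with hairpin 78. Library 1 was lowest in each group (−0.61, SE 0.08, edgeR adjusted p 8.67e-06). The glutathione synthesis subunit GCLC fell by 0.32 (edgeR adjusted p 0.000774), while its partner GCLM rose by 0.25 (edgeR adjusted p 0.0103). The classic targets NQO1 (−0.14, edgeR adjusted p 0.103) and HMOX1 (−0.16, edgeR adjusted p 0.623) did not pass. The count of 10 was 3, 6 and 5 without library 1 of scramble, hairpin 76 and hairpin 78. Of 16 selenoproteins, the family of GPX3, 3 rose and 1 fell (median 0.06). SELENOP, the secreted selenium carrier, had 9.32, 5.81 and 6.14 CPM, 5.37, 2.52 and 2.86 CPM, and 7.06, 3.03 and 3.44 CPM in scramble, hairpin 76 and hairpin 78, with library 1 highest in each (0.90, SE 0.15, edgeR adjusted p 0.000114). The count of 4 was 2 and 1 without library 1 of scramble and hairpin 78.

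**Figure D4:**
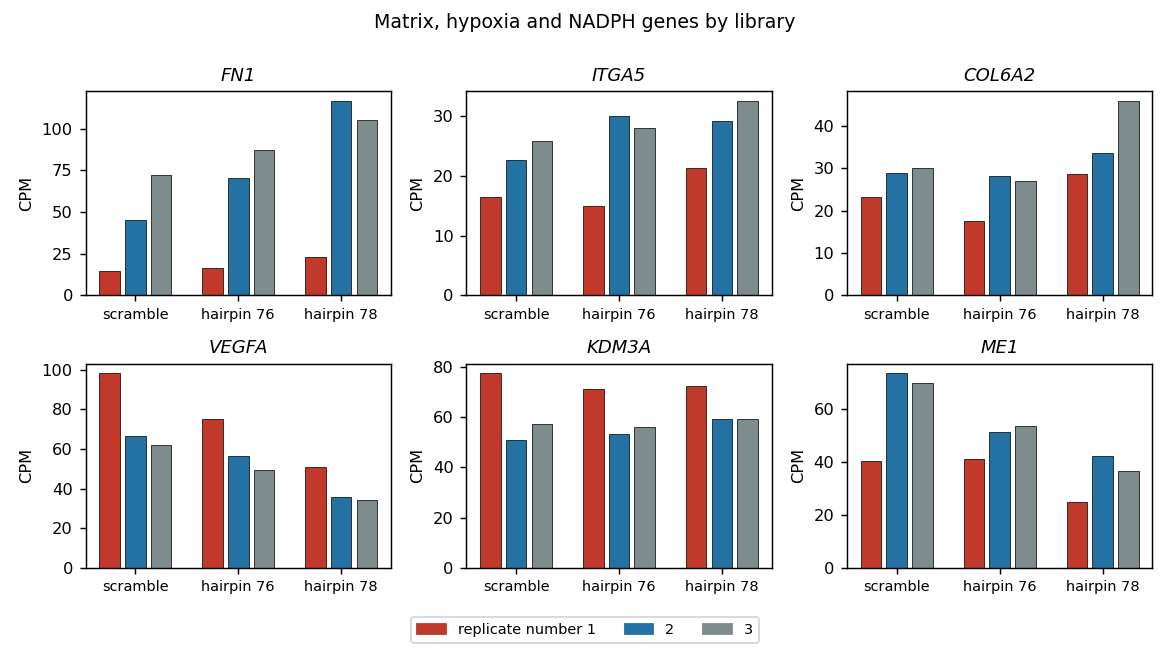
Bars give normalised CPM (y axes, from 0) of 1 library each for 6 genes, grouped by hairpin, with colour for the replicate number. In every hairpin group FN1, ITGA5, COL6A2 and ME1 are lowest, and VEGFA and KDM3A highest, in library 1.

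Of the 13 protein-coding genes of the mitochondrial genome, edgeR called 9 lower in number 1 and 0 higher (10 and 0 by unadjusted p and by DESeq2), against 8.44% and 7.13% of all genes, and all 13 had a negative value (median −0.18). MT-ND4, a subunit of complex I, had 5228, 5948 and 6344 CPM in scramble, 5535, 6356 and 6549 CPM with hairpin 76, and 5815, 6369 and 6767 CPM with hairpin 78, lowest in library 1 and highest in library 3 of each group (−0.21, SE 0.04, edgeR adjusted p 0.000706). Mitochondrial RNA was 4.24% to 4.64% of counts in number 1 and 4.62% to 5.16% in the others, with a small overlap between groups of different hairpins. The count was 3, 5 and 5 without library 1 of scramble, hairpin 76 and hairpin 78. The median absolute log2 fold change was 0.18 for these 13 genes, which have high counts, and 0.14 over all genes. Nuclear genes of oxidative phosphorylation were counted beside them: of 30 tested, edgeR called 2 higher and 0 lower (5 and 1 by unadjusted p, 1 and 0 by DESeq2, median −0.01). Of 76 cytosolic ribosomal protein genes, edgeR called 2 lower and 0 higher (7 and 2 by unadjusted p, 1 and 0 by DESeq2, median −0.04), a share below that of all genes, and both calls (RPS23 and RPL12) were lost without library 1 of any group. In 1 against 3, 12 of the 76 were lower in 1 and 0 higher, against 12.6% and 11.8% of all genes. Between 2 and 3, 1 was lower in 2 and 0 higher (24 and 0 by unadjusted p), against 3.27% and 3.87%.

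Signalling lists are read against 8.44% of all genes called lower and 7.13% higher. Of 23 immediate early and ERK target genes, 8 fell and 2 rose (median −0.17), with the transcription factor KLF4 at 24.3, 30.4 and 32.3 CPM, 21.0, 31.1 and 30.5 CPM, and 22.8, 29.2 and 27.2 CPM in scramble, hairpin 76 and hairpin 78. Every library numbered 1 was below every other (−0.41, SE 0.08, edgeR adjusted p 0.000635). The list count of 10 was 6 and 3 without library 1 of hairpin 76 and hairpin 78. Of 6 glucocorticoid-induced genes edgeR called 3 lower and 0 higher (3 and 0 by unadjusted p, 2 and 0 by DESeq2, median −0.24), among them CRISPLD2 (−0.60, edgeR adjusted p 2.53e-05). That count was 1 without library 1 of scramble. Of 4 metallothionein and zinc export genes above the filter 2 fell, with MT2A at −0.50 (edgeR adjusted p 0.000123), and of 4 estrogen-induced genes 2 fell, with CA12 at −0.71. Of 6 aryl hydrocarbon receptor targets 2 fell, the xenobiotic oxidases CYP1A1 (−1.01, edgeR adjusted p 0.00461) and CYP1A2. CYP1A1 had 3.02, 4.87 and 7.46 CPM, 2.71, 4.70 and 6.25 CPM, and 2.53, 3.16 and 6.76 CPM, an order of 1 below 2 below 3 in every group. Without library 1 of hairpin 76 these 3 counts of 2 were 1, 1 and 0, and other single libraries also lowered them to 1.

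Circadian clock genes changed in both directions: of 19, 5 rose and 4 fell (median 0.03), against 7.13% and 8.44% of all genes. The clock repressor CRY1 rose by 0.40 (edgeR adjusted p 0.00465) and BHLHE41 by 0.27, while BHLHE40 fell by 0.33 (edgeR adjusted p 0.000656) and the activator NPAS2 by 0.61 (edgeR adjusted p 0.00125). The count of 9 was 4 and 5 without library 1 of scramble and hairpin 76. Cell cycle lists follow. Of 26 mitotic genes edgeR called 2 higher and 0 lower (2 and 3 by unadjusted p, 2 and 0 by DESeq2, median −0.01), and of 27 replication genes 3 rose and 2 fell (median −0.04, with 1 to 3 called in 7 of the 9 fits without 1 library). CCNE1, cyclin E, which is amplified in OVCAR3, had 154, 107 and 125 CPM in scramble, 154, 104 and 113 CPM with hairpin 76, and 143, 105 and 96.5 CPM with hairpin 78. All 3 libraries numbered 1 were above the 6 others (0.47, SE 0.05, edgeR adjusted p 1.16e-06), and the call held in all 9 of those fits. Of 17 clustered histone genes edgeR called 5 higher and 0 lower (6 and 1 by unadjusted p, 5 and 0 by DESeq2, median 0.21), with the linker histone HIST1H1C at 129, 137 and 129 CPM in number 1 and 102 to 113 CPM in the others (0.30, edgeR adjusted p 7.8e-05). The count was 2 without any 1 of the libraries numbered 1. Between 2 and 3, 5 histones were higher in 2, against 3.87% of all genes, and 3 were without library 2 or 3 of scramble or library 3 of hairpin 76.

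The stress lists had calls in both directions, against the same 7.13% and 8.44%. Of 28 integrated stress response genes 5 rose and 2 fell (median 0.06), with the mitochondrial folate enzyme MTHFD2 at 0.31 (edgeR adjusted p 4.9e-05). Of 19 unfolded protein response genes 3 rose and 2 fell (median 0.02). The 7 stress response calls were 2, 4 and 3 without scramble library 1, scramble library 3 and hairpin 78 library 1, and the 5 unfolded protein response calls were 0 to 3 without scramble library 1, 2 or 3, hairpin 76 library 1 or 2 or hairpin 78 library 1. Of 10 FOXO and MondoA targets 2 rose and 1 fell: the insulin receptor substrate IRS2 was lower at −0.38 (edgeR adjusted p 9.75e-05), and the glucose-sensing arrestin TXNIP was higher at 0.45. Of 10 WNT targets 2 rose and 2 fell, with the feedback inhibitor AXIN2 at 0.68 (edgeR adjusted p 0.00174). At or near the background of 15.6%, for number 1 against 2 and 3 together, were p53 targets (1 rose and 2 fell of 19, CDKN1A at −0.65) and TGF-beta and BMP targets (1 and 1 of 11). Below it, for number 1 against 2 and 3 together, were interferon-stimulated genes (1 and 1 of 29) and NF-kB targets (2 fell of 20). So were lysosome and autophagy genes (2 fell of 20) and snoRNA host genes (1 fell of 14). Single numbers differed more: 7 NF-kB targets fell and 0 rose in 1 against 2, where 9.38% and 8.66% of all genes were called. Of the 19 p53 targets, 4 fell and 3 rose in 1 against 2. In 1 against 3, 6 of them fell and 2 rose, against 12.6% and 11.8% of all genes. Between 2 and 3, 3 NF-kB targets were higher in 2 and 1 lower, against 3.87% and 3.27%. In 1 against 3, 7 lysosome and autophagy genes fell and 0 rose, against 12.6% and 11.8%. Of 6 nuclear-retained long RNAs 1 rose and 1 fell. Leaving out 1 library moved most of these small counts by 1 or 2 genes, and the 4 WNT target calls were 2, 1 and 2 without library 1 of scramble, hairpin 76 and hairpin 78, and 2 without library 2 of hairpin 76.

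**Figure D5:**
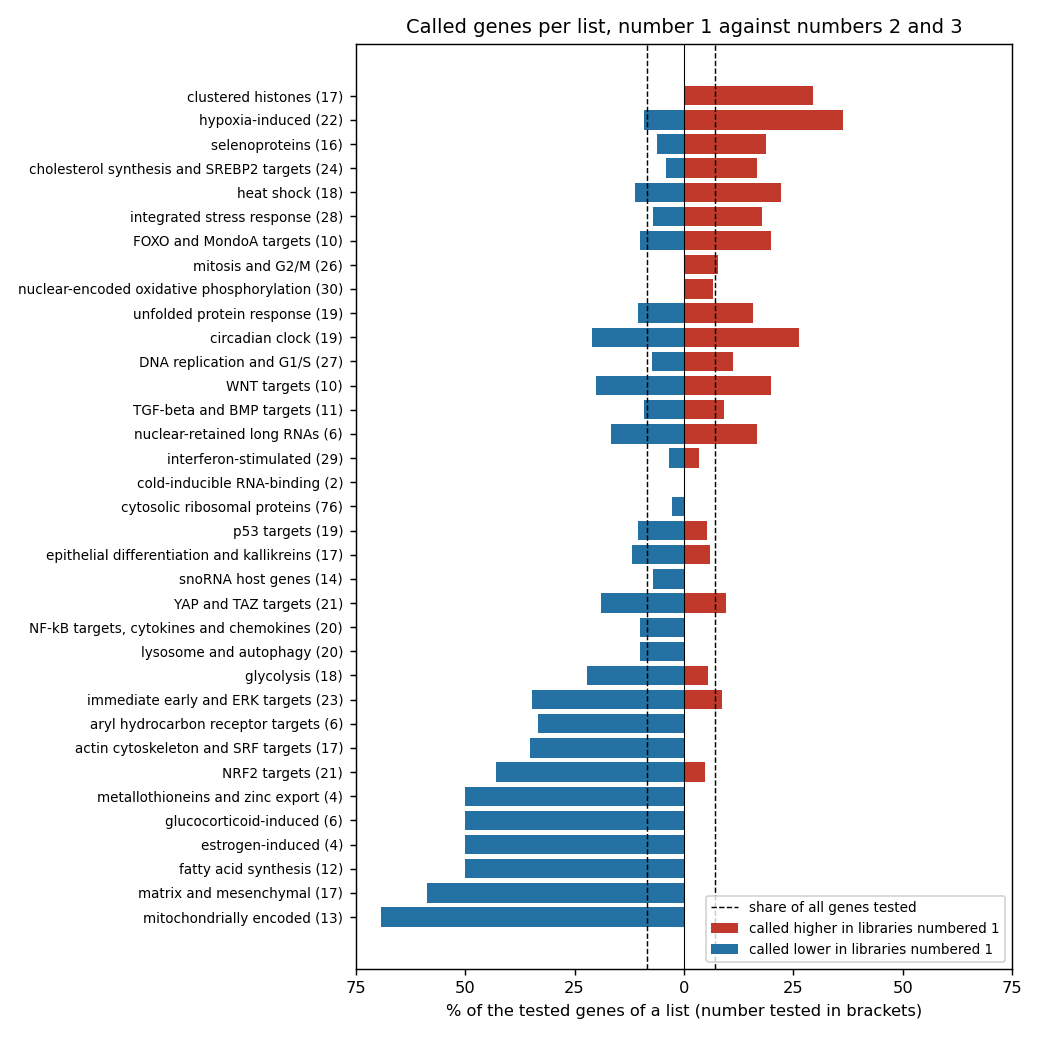
For 35 gene lists (y axis, number of genes tested in brackets), bars give the percent of tested genes called higher (right) or lower (left) in libraries numbered 1, and dashed lines the same over all 17023 genes (7.13% and 8.44%). Matrix and mitochondrially encoded genes reach farthest to the left and hypoxia genes farthest to the right.

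Beyond the lists, 6 genes were named by the size of their difference between 2 and 3. BTG2, an antiproliferative early gene, had 28.3, 17.9 and 35.0 CPM in scramble, 34.2, 23.8 and 45.0 CPM with hairpin 76, and 36.2, 19.3 and 49.2 CPM with hairpin 78. Number 2 was lowest and number 3 highest in every group (log2 fold change of 2 over 3 −1.07, edgeR adjusted p 1.97e-13), and number 1 lay between them and was not called against their mean (0.05, edgeR adjusted p 0.957). IFNE, an interferon of epithelia, was at 2.17, 2.91 and 1.93 CPM in number 2 and 0.287, 0.811 and 0.909 CPM in number 3 (1.83, edgeR adjusted p 8.83e-05). IFNE overlaps the long RNA MIR31HG in the annotation. QRFP (1.08) and HIST4H4 (0.90) were higher and MDFI (−0.93) and TLX3 (−0.88) lower in 2, and each of these 4 calls was lost without library 3 of hairpin 76 and at least 1 other library (edgeR adjusted p up to 0.345).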

How the data were processed

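Poly-A RNA was sequenced without strand information from 9 libraries, 3 per hairpin group. The submitters' processing notes name the aligner HISAT2 2.0.5, the read counter featureCounts 1.5.0-p3 and the build hg38, and settings are not given in the sources used here. The deposited tables held raw counts and FPKM per gene, with gene lengths. All 58735 identifiers matched GENCODE 29 in start and end. Genes under a minimum count of 10 (total 15, edgeR filterByExpr) were left out. The main test was edgeR 4.0.16 (R 4.3.3): TMM scaling, a robust quasi-likelihood F test with hairpin as block and 1 indicator for number 1, and Benjamini-Hochberg adjustment over all 17023 genes, called under 0.05. The difference between numbers 2 and 3 thereby stays in the error. Pairs of numbers used a factor of 3 levels. Printed log2 fold changes are edgeR's and CPM values are TMM-scaled. Alternatives were DESeq2 1.42.0, limma 3.58.1 on log2(FPKM + 1) and log2(FPKM + 0.1), other scaling, no filter, and leaving out each library, number and hairpin group. Scripts for the tests were tested on simulated data.

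The members and the gene lists were chosen with earlier results of these data known. List counts are therefore descriptions beside the share over all genes, with no test of a list. Lists were not matched to all genes in expression, and genes with high counts can be called at smaller differences. Genes were named by a rule: GPX3 and GDF15; the 10 highest and 10 lowest protein-coding genes called, with library 1 beyond both others in each hairpin group and a mean FPKM of at least 1; up to 4 called genes per list by smallest p, or up to 2 by highest FPKM where fewer than 2 were called; the 3 highest and 3 lowest called protein-coding genes between 2 and 3; and up to 3 interaction genes. Other genes in the text, such as HSPA8, HSPH1, VIM, EGLN3 and the keratins, were chosen after their values were seen. The check that same-numbered libraries pair used correlations of deviations from the group means over genes. They were 0.37 to 0.39 for number 1, 0.14 to 0.20 for number 2 and 0.24 to 0.35 for number 3. Every same-numbered pair was thus above 0.1, against −0.31 to 0.06 between different numbers. The 3 deviations of a group sum to 0, so positive values for same numbers push those between different numbers below 0. The values for number 1 are the r values given in the Results, not a separate check. No 2 libraries of a group agreed within sampling noise (chi-square per degree of freedom 4.90 to 11.1). A few genes that these rules name are not reported here.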

Additional observations from a re-analysis of the deposited data

Results flagged for a closer look

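BOLA2B was the 1 gene whose number 1 difference varied with the hairpin (edgeR interaction, adjusted p 0.000683). It had 32, 29 and 24 counts in scramble libraries 1 to 3, 529, 14 and 21 with hairpin 76, and 13, 5 and 17 with hairpin 78. The value came from hairpin 76 library 1, and without that library the adjusted p was 1. BOLA2B at chr16:30192934-30194306 has the near-identical copy BOLA2, listed at 0 to 3 counts, and the readthrough gene BOLA2-SMG1P6, at 1 to 10 counts, so the split of reads between copies is uncertain. The 3 summed to 33.4 CPM of the total count in that library and 0.614 to 2.45 CPM in the others.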

How the results depend on the processing

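The 2649 genes differing between number 1 and numbers 2 and 3 became 4109 with number as 3 levels, 4010 without number 2, 528 with no hairpin block, 1596 and 1599 by limma on log2(FPKM + 1) and log2(FPKM + 0.1), and 1303, 1472 and 1504 without the scramble, hairpin 76 and hairpin 78 groups. Leaving out 1 library gave 1143 to 2684. A GC content and length correction, chosen after seeing the data, gave 2723. DESeq2 called 1994 genes for 1 against 2, 2730 for 1 against 3 and 652 for 2 against 3, where edgeR called 3071, 4151 and 1215. Leaving out 1 library gave 2052 to 3187, 2660 to 4273 and 549 to 1280. The correction for GC content and length left 1260 for 2 against 3, with 49.4% higher in place of 54.2%. Without the low-count filter 9 genes had an interaction, and leaving out 1 library gave 0 to 3. With the replicate number as a block, the contrast of hairpins with scramble called 3462 genes in place of 687, among them 683 of those 687.

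Of the 132 named genes called for number 1, the direction held for 132 under every alternative run, and the call for 32. Of 15 called between 2 and 3, these numbers were 15 and 10. The cause of these changes was not tested. What the number marks, and 3 libraries per number, limit the comparison. Low counts limit genes such as ORM2, with 3 to 19 counts per library.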
